A study of Mus musculus with 45 samples.

Results

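WNT signalling was followed through 10 genes of the pathway, the ligand genes Wnt3 and Wnt9a, the β-catenin gene Ctnnb1, the TCF/LEF factor genes Lef1, Tcf7, Tcf7l1 and Tcf7l2, and the target genes Axin2, Sp5 and Nkd1, of 55385 genes measured. The 10 genes were chosen by their symbols after values of these libraries had been seen, so their levels and differences are described here with no p-value. Where a member is said to be called, it passed the cut-offs that were applied to every gene, which is a description and not independent evidence. The data are 18 RNA-seq libraries of mouse late 2-cell embryos, morulae, inner cell masses at embryonic day 4.5 (E4.5 ICM) and 2iES cells, labelled mESC. Every sample, the controls included, carried the genotype Gabpa-dTAG/dTAG, in which both copies of Gabpa, the gene of an ETS-family transcription factor, encode a protein tagged for degradation by the small molecule dTAG13. Control samples received the solvent DMSO. Late 2-cell embryos were kept in 1 µM dTAG13 from 6 to 30 h post fertilization (hpf) and morulae in 1 µM from the four-cell stage. E4.5 ICM came from blastocysts kept in 1 µM from 84 to 100 hpf, and 2iES cells received 0.5 µM for 24 h. There were 3 libraries of each treatment at the late 2-cell stage and 2 at each other stage. The E4.5 ICM is a mixture of epiblast and primitive endoderm freed from trophectoderm by immunosurgery, and the 2iES cells are a picked clone of the E14 line, grown with serum, LIF and inhibitors of MEK and GSK3, so strain, culture and cell type differ together from the embryos.

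In canonical WNT signalling a secreted ligand binds Frizzled and LRP receptors, a cytoplasmic complex built on axin, APC and the kinase GSK3 stops marking β-catenin for destruction, and β-catenin joins TCF/LEF factors on DNA. Axin2, Sp5 and Nkd1 are targets that feed back on the pathway. Inhibition of GSK3 stabilizes β-catenin without a ligand, and in mouse ES cells this is known to relieve repression by TCF7L1, which holds naive pluripotency genes in check.

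Total expected counts were 9457933 to 27660132 a library and were lowest in morulae. Gabpa mRNA, which the degron does not target, was higher with dTAG13 in every library at every stage, for example 27.5 and 27.3 TPM (transcripts per fixed total of transcripts, a level scaled by length) against 10.1 and 11.2 TPM in the E4.5 ICM, and mRNA does not check the loss of the protein. The replicates of the E4.5 ICM differed by little more than counting noise, with a median chi-square of 1.62 (DMSO) and 1.69 (dTAG13) times that of sampling alone, against 8.20 to 16.1 in the other groups except 2iES cells with dTAG13, at 2.86. The labels do not say that replicates came from separate pools of embryos or cultures, so p-values measure the spread between these libraries, which may be technical. In bulk samples fewer cells of a type and less RNA a cell cannot be told apart.

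On GRCm38 the genes lie at chr11:103774150-103817957 (Wnt3, plus strand), chr11:59306928-59333552 (Wnt9a, plus), chr9:120929216-120960507 (Ctnnb1, plus), chr3:131110471-131224356 (Lef1, plus), chr11:52252371-52283014 (Tcf7, minus), chr6:72626378-72789254 (Tcf7l1, minus), chr19:55741820-55933654 (Tcf7l2, plus), chr11:108920349-108950783 (Axin2, plus), chr2:70474923-70477729 (Sp5, plus) and chr8:88521354-88594884 (Nkd1, plus). The library kit does not mark strand, and exons of an antisense gene cover 14.6% of the exonic bases of Ctnnb1 (Ulk4), 13.7% of those of Lef1 (Gm43352), 4.56% of those of Tcf7l1 (Gm15401) and 3.796% of those of Axin2 (Gm11670), so reads from these stretches cannot be assigned to either gene. Of the 31-base words in its exons, Sp5 shared 3.96% with its paralogue Sp9, whose reads over them cannot be told apart.

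RefSeq promoter windows (GRCm38.p6), from 250 bases before to 50 after an annotated start, were found for the 10 genes, in 16 windows. The letters CCGGAAG, the ETS core bound by GABPA, were searched on both strands and occurred in 1 of these 16 windows, beside 8.86% of all 32851 windows. The letters CTTTGA, a TCF/LEF core, occurred in 2 of the 16 windows on either strand, beside 16.003% of all windows. No window of the 10 genes held both sets of letters. The windows with a match are shown because they hold the letters of an ETS core or of a TCF/LEF core. The bases before the start are given 5′ to 3′ on the strand of the gene, up to the nearest annotated exon, with the matches in capitals. In Lef1 and Tcf7 the matches lie on the opposite strand and read as the reverse complement. A match is a description of letters and not of binding, and binding was not analysed here. Sp5 (chr2:70474673-70474922, plus strand, 250 bases), whose product represses WNT targets, holds 2 TCF/LEF cores. Lef1 (chr3:131156044-131156293, plus strand, 250 bases), at an internal start, also holds 2. Tcf7 (chr11:52282596-52282711, minus strand, 116 bases), at an internal start, holds 1 ETS core.
Sp5: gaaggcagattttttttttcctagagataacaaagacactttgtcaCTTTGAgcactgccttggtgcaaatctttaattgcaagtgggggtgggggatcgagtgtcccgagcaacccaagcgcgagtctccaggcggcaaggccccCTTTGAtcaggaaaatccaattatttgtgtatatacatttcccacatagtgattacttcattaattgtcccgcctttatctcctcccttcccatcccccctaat
Lef1: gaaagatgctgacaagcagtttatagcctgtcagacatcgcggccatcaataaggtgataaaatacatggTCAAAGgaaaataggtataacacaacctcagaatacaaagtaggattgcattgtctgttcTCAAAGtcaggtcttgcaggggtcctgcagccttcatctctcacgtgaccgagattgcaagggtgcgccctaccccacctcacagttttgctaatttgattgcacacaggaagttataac
Tcf7: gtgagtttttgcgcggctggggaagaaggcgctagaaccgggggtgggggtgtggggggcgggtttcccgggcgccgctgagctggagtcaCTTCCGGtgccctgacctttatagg

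Both ligand genes were close to absent outside 2iES cells with dTAG13, where Wnt3 was at 1.48 TPM or more and Wnt9a at no more than 0.31 TPM. Wnt3 encodes a canonical ligand needed for the primitive streak. Its level was 0.17 and 0.16 TPM (16 and 16 counts) in 2iES cells with DMSO and 1.48 and 1.57 TPM (140 and 120 counts) with dTAG13. The dTAG13 libraries were the highest of all 18, and no other library exceeded 0.30 TPM. The fitted difference was 3.26 on the log2 scale (SE 0.27), a 9.58-fold higher count with dTAG13. Wnt3 in the E4.5 ICM went the other way at the limit of detection, with 3 and 6 counts against 0 and 0, and in morulae with 7 and 4 counts against 0 and 1. Wnt9a, another ligand gene, had 1 and 5 counts in 2iES cells with DMSO and 23 and 26 with dTAG13, which is 0.01 and 0.05 against 0.22 and 0.31 TPM. The fitted difference of Wnt9a was 3.24 (log2, SE 0.69). Without DMSO replicate 2 it was 4.67 and without DMSO replicate 1 it was 2.50. The E4.5 ICM had 0 counts of Wnt9a in both DMSO libraries, where 3 counts a library is the limit that 0 allows, and 10 and 3 with dTAG13, at least 2.25-fold higher. All 6 late 2-cell libraries had 0 counts. Counts this low leave the size of these differences loose, and limits and intervals here cover counting error only.

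**Figure D1:**
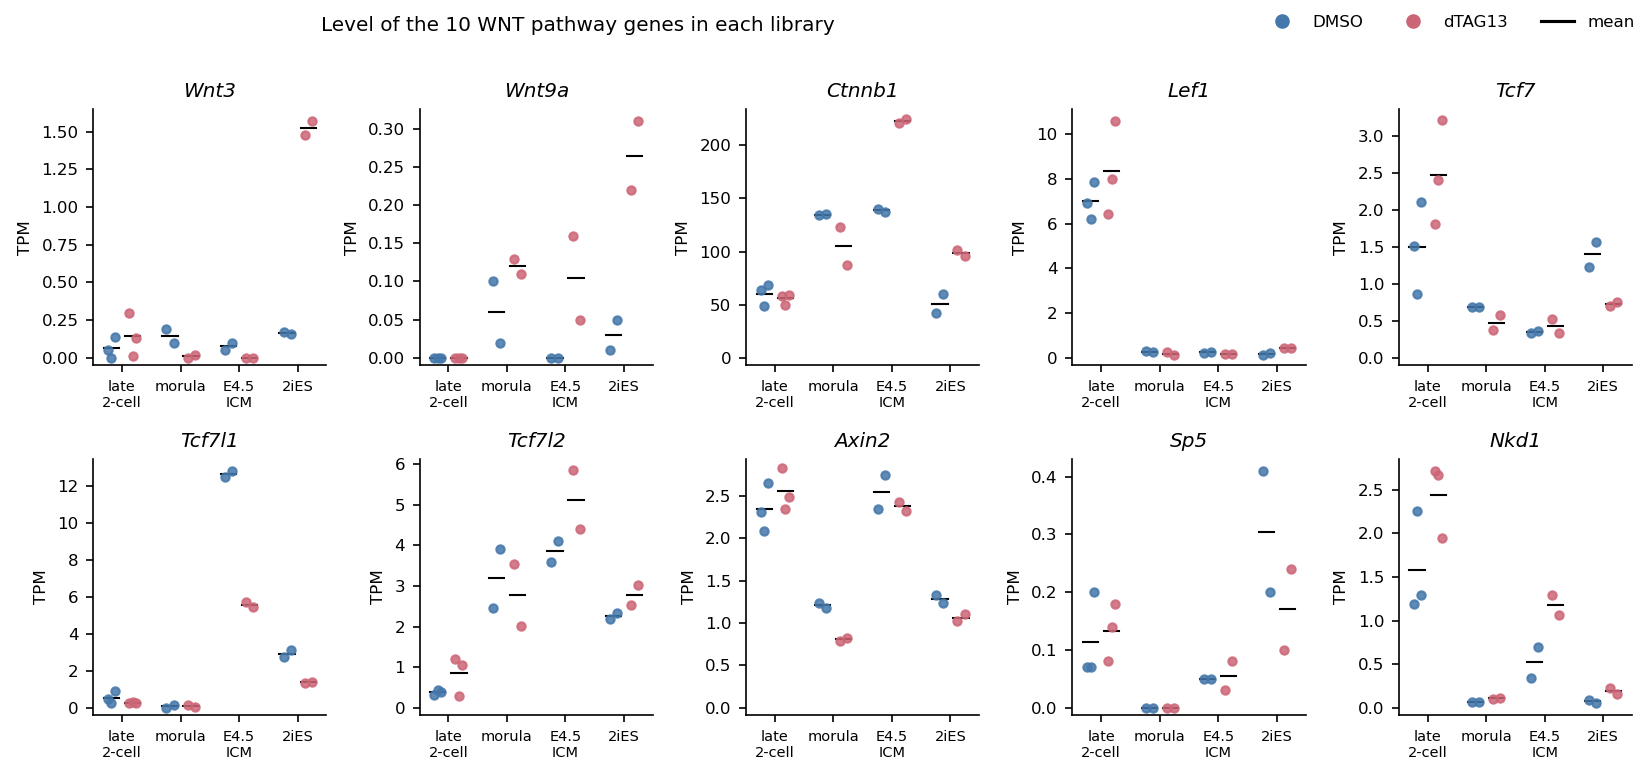
Level in TPM (vertical axis, linear, a scale for each gene) of the 10 genes in each of the 18 libraries at the late 2-cell stage, in morulae, in the E4.5 ICM and in 2iES cells, with DMSO (blue) and dTAG13 (red). Points are libraries and black lines are group means. Wnt3 reached 1.48 and 1.57 TPM only in 2iES cells with dTAG13, Lef1 was above 6 TPM only at the late 2-cell stage, and Tcf7l1 was highest in the E4.5 ICM with DMSO at 12.5 and 12.8 TPM.

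Ctnnb1 was the most abundant of the 10 genes in every library. β-catenin is also part of adherens junctions, so its mRNA is not specific to signalling. Its level was 49.1 to 68.4 TPM with DMSO and 50.0 to 59.4 TPM with dTAG13 at the late 2-cell stage. Morulae had 134.1 and 135.0 TPM with DMSO and 123.4 and 87.8 TPM with dTAG13. The groups overlapped at the late 2-cell stage and lay apart in morulae, where the fitted difference was -0.33 (log2, SE 0.20). In the E4.5 ICM the level was 140.2 and 137.3 TPM with DMSO and 220.8 and 224.8 TPM with dTAG13, a fitted difference of 0.56 (SE 0.03). In 2iES cells it was 42.4 and 59.6 TPM against 101.9 and 96.3 TPM, a fitted difference of 0.89 (SE 0.15). Both dTAG13 libraries were the higher ones in the E4.5 ICM and in 2iES cells, by less than the 2-fold needed for a call. In 2iES cells the fitted difference ran from 0.68 to 1.08 as single libraries were left out, on both sides of that limit. In order of mean level, the E4.5 ICM with dTAG13 came first and 2iES cells with DMSO last, and the last 3 groups, which include both late 2-cell groups, overlapped.

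The TCF/LEF genes were expressed at different stages. Lef1, whose product is a mostly activating partner of β-catenin, was a late 2-cell transcript. Its level there was 6.93, 6.21 and 7.88 TPM with DMSO and 6.45, 8.01 and 10.6 TPM with dTAG13, and the groups overlapped. At the later stages no library exceeded 0.45 TPM. The effective length estimated for Lef1 was 1561 bases at the late 2-cell stage with DMSO and 3373 bases in the E4.5 ICM with DMSO, and its part in the order of levels was not tested. Lef1 had 12 and 20 counts in 2iES cells with DMSO and 33 and 26 with dTAG13, a fitted difference of 1.12 (log2, SE 0.42), which was 0.78 without DMSO replicate 1. It had 16 and 19 E4.5 ICM counts with DMSO and 10 and 12 with dTAG13.

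Tcf7, which encodes TCF1, was low everywhere. Its mean was highest at the late 2-cell stage, where the DMSO libraries overlapped those of 2iES cells with DMSO, at 1.51, 0.87 and 2.11 TPM with DMSO and 1.81, 2.41 and 3.22 TPM with dTAG13, and the groups overlapped. In 2iES cells it was 1.23 and 1.57 TPM with DMSO and 0.70 and 0.75 TPM with dTAG13, a fitted difference of -0.86 (log2, SE 0.26). Both dTAG13 libraries were below both DMSO libraries in 2iES cells. In the E4.5 ICM it was 0.33 and 0.36 TPM with DMSO and 0.52 and 0.34 TPM with dTAG13, and the sign of the difference turned without dTAG13 replicate 1, from 0.28 to -0.06.

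Tcf7l1, the repressor of the family in ES cells (also called TCF3), was the 1 member that was called in both the E4.5 ICM and 2iES cells. Its level in the E4.5 ICM was 12.5 and 12.8 TPM with DMSO and 5.70 and 5.44 TPM with dTAG13. In 2iES cells it was 2.72 and 3.10 TPM with DMSO and 1.32 and 1.41 TPM with dTAG13. In both, the dTAG13 libraries were lower and lay apart from the DMSO libraries. The fitted differences were -1.18 (log2, SE 0.08) and -1.02 (SE 0.19). In 2iES cells the gene sat at the 2-fold limit, with -0.95 without DMSO replicate 2, -0.98 with scaling by library totals and -0.96 with all 18 libraries in 1 fit. The 4 groups of the E4.5 ICM and 2iES cells lay apart from each other in level. The gene was at 0.23 to 0.90 TPM at the late 2-cell stage and at no more than 0.16 TPM in morulae.

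Tcf7l2, which encodes the factor also called TCF4, was at 0.29 to 1.21 TPM at the late 2-cell stage, 2.01 to 3.92 TPM in morulae, 3.60 and 4.12 TPM with DMSO and 5.85 and 4.40 TPM with dTAG13 in the E4.5 ICM, and 2.19 and 2.33 TPM with DMSO and 2.53 and 3.03 TPM with dTAG13 in 2iES cells. The fitted difference was 0.39 (log2, SE 0.12) in the E4.5 ICM and -0.17 (SE 0.19) in 2iES cells. The sign in 2iES cells depended on the measure, since the TPM were higher with dTAG13 (0.29 as a log2 ratio of means with 0.1 TPM added) while the counts were not. The effective transcript length that RSEM estimated for the gene was 3245 bases with DMSO and 2260 bases with dTAG13, and its part in this result was not tested.

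Axin2, Sp5 and Nkd1 were all low in 2iES cells, whose medium held the GSK3 inhibitor. Sp5 nevertheless had its highest group mean there with DMSO, at 0.305 TPM, overlapping 2iES cells with dTAG13. Axin2, a scaffold of the destruction complex and the usual readout of the pathway, was at 1.33 and 1.24 TPM with DMSO and 1.02 and 1.10 TPM with dTAG13. These lie below all 4 E4.5 ICM libraries, at 2.34 and 2.75 TPM with DMSO and 2.43 and 2.32 TPM with dTAG13, and below the late 2-cell libraries, at 2.09 to 2.83 TPM. Morulae had 1.23 and 1.18 TPM with DMSO (43 and 43 counts) and 0.79 and 0.82 TPM with dTAG13 (20 and 27 counts), the largest difference at any stage, -1.01 (log2, SE 0.47), and -0.70 without dTAG13 replicate 1. At the other stages the fitted difference of Axin2 was 0.12 (SE 0.23), -0.09 (SE 0.17) and 0.10 (SE 0.24) for the late 2-cell stage, the E4.5 ICM and 2iES cells. The E4.5 ICM value turned to 0.05 without DMSO replicate 2. The 2iES value was -0.26 as a log2 ratio of mean TPM with 0.1 TPM added, with an effective length of 1716 bases with DMSO and 2134 bases with dTAG13.

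Sp5, a zinc-finger gene under direct control of β-catenin, was near the limit of detection. It had 26 and 13 counts (0.41 and 0.20 TPM) in 2iES cells with DMSO and 6 and 12 counts (0.10 and 0.24 TPM) with dTAG13, and the groups overlapped. All 4 morula libraries had 0 counts, and the E4.5 ICM libraries had 1 to 3. The fitted difference in 2iES cells was -0.83 (log2, SE 0.63), and it ran from -1.62 to -0.27 as single libraries were left out.

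Nkd1, which encodes a Dishevelled-binding inhibitor, had its highest means at the late 2-cell stage, where the DMSO libraries overlapped the E4.5 ICM with dTAG13, at 1.19, 2.26 and 1.29 TPM with DMSO and 2.72, 2.67 and 1.95 TPM with dTAG13, and the groups overlapped. E4.5 ICM libraries held 0.34 and 0.70 TPM with DMSO and 1.29 and 1.06 TPM with dTAG13. These TPM lay apart, but the counts were 24 and 36 against 41 and 38 and the fitted difference was 0.44 (log2, SE 0.30), while the estimated effective length was 2786 bases with DMSO and 1660 bases with dTAG13. In 2iES cells it had 6 and 2 counts with DMSO and 18 and 8 with dTAG13, too few for the fit.

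**Figure D2:**
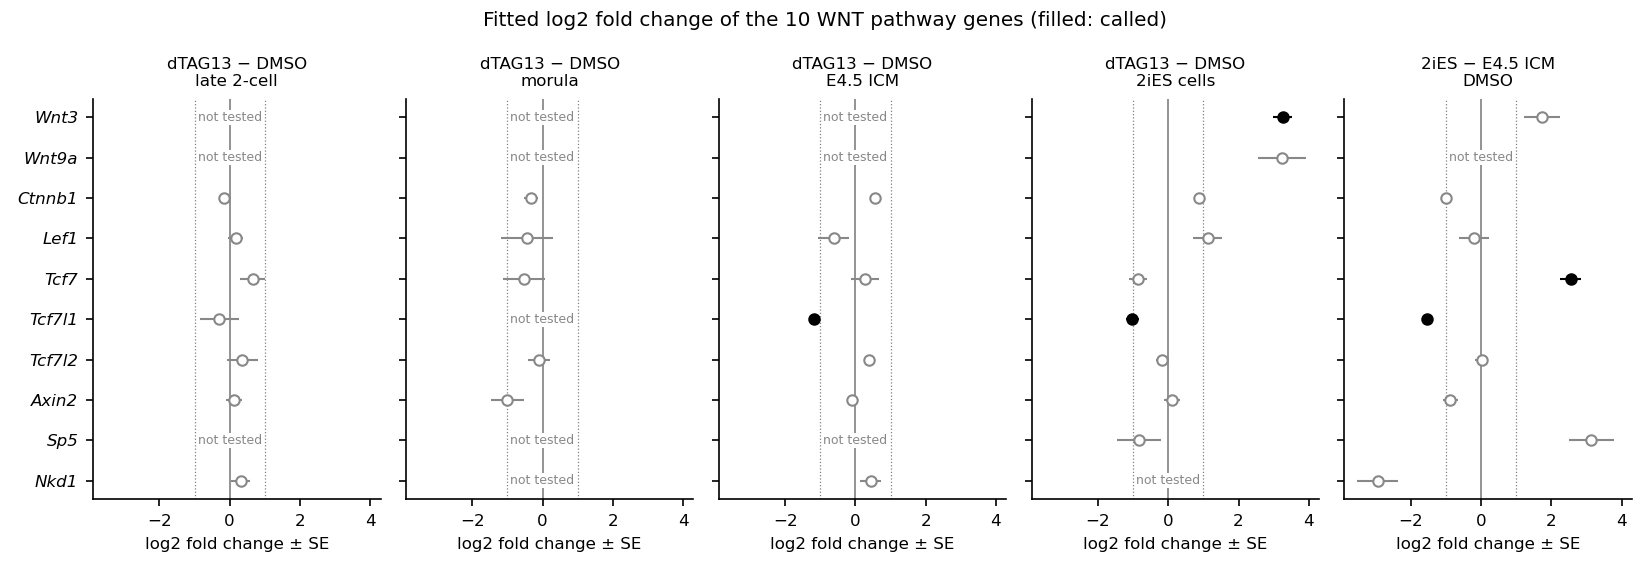
Fitted log2 fold change (horizontal axis) with its standard error of each of the 10 genes in 5 comparisons, dTAG13 minus DMSO at 4 stages and 2iES cells minus E4.5 ICM with DMSO. Filled points were called, open points were not, and dotted lines mark a 2-fold change. Filled are Tcf7l1 in the E4.5 ICM, Wnt3 and Tcf7l1 in 2iES cells, and Tcf7 and Tcf7l1 in the last panel.

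Calls required an adjusted p under 0.05, a difference of 2-fold or more, and in 1 of the groups compared an average FPKM (fragments scaled by transcript length and library size) of 1 or more. At the late 2-cell stage 7 of the 10 genes had enough counts and 0 were called, beside 3.63% of all genes tested called lower with dTAG13 and 0.476% called higher. In morulae 5 had enough counts and 0 were called, beside 0.198% lower and 0.154% higher. In the E4.5 ICM 7 had enough counts and 1 was called lower, beside 13.2% of all genes lower and 12.1% higher. In 2iES cells 9 had enough counts, 1 was called lower and 1 higher, beside 15.6% lower and 12.4% higher. Since the genes were chosen with these values in view, nothing is read from their shares. The median fitted difference of the members with enough counts was 0.17, -0.44, 0.28 and 0.10 (log2) in the order of the stages, beside 0.02, -0.02, 0.01 and 0.03 for all genes tested.

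2iES cells and the E4.5 ICM were also set side by side under DMSO, the first with a GSK3 inhibitor and the second without. The inhibitor, the strain, the culture and the absence of primitive endoderm in 2iES cells cannot be told apart here. Summed over 8 primitive endoderm markers, the level was 566 to 575 TPM in the E4.5 ICM and 3.36 to 5.15 TPM in 2iES cells. Of the 9 members with enough counts, Tcf7 was called higher in 2iES cells (2.54 on the log2 scale, SE 0.29) and Tcf7l1 lower (-1.55, SE 0.14), beside 15.2% of all genes higher and 18.4% lower. Ctnnb1 (-0.99, SE 0.15) and Axin2 (-0.88, SE 0.21) were lower in 2iES cells by less than 2-fold. Sp5 was higher in 2iES cells, at 39 counts in 2 libraries against 4. The ratio was 9.30 with an exact 95% counting interval of 3.36 to 35.8. Nkd1 was lower (-2.94, SE 0.58), with 6 and 2 counts in 2iES cells, and ran from -3.88 to -2.35 as single libraries were left out. Both genes were under 1 FPKM. These values rest on TMM scaling, under which the median gene differed by -0.05. Scaling by library totals moved that median to -0.44 and made Ctnnb1 (-1.38) and Axin2 (-1.27) called too, while Tcf7l2 went from 0.02 to -0.37.

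The rest of the pathway was read from a list of 110 other WNT genes, each tested within the fit of all genes. The list was chosen with earlier results of these data known, so its counts, medians and p-values are not independent evidence. At the late 2-cell stage 72 were tested, 1 fell and 1 rose, and the other 70 did not pass, beside 3.63% of all genes lower and 0.476% higher. Pygo2, a chromatin reader in the β-catenin complex, fell from 4.25, 3.13 and 4.15 TPM to 1.04, 1.31 and 0.56 TPM (-2.03 on the log2 scale, SE 0.33, adjusted p = 0.00276, edgeR). Aes, a short relative of the Groucho corepressors, rose from 2.75, 1.33 and 2.87 TPM to 4.92, 6.42 and 7.43 TPM (1.34, SE 0.33, adjusted p = 0.0275, edgeR). The call of Aes was lost without DMSO replicate 2 (adjusted p = 0.0847), DMSO replicate 3 (adjusted p = 0.0784), dTAG13 replicate 2 (adjusted p = 0.0912) or dTAG13 replicate 3 (adjusted p = 0.108), all by edgeR. In morulae 54 were tested and 0 were called by edgeR or DESeq2, with 7 at an unadjusted p under 0.05 in edgeR. The median over the list was 0.09 at the late 2-cell stage and -0.05 in morulae (log2), beside 0.02 and -0.02 for all genes tested.

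In the E4.5 ICM 77 of the 110 genes were tested, 5 fell, 8 rose and 64 were not called, beside 13.2% of all genes lower and 12.1% higher. The median was 0.36 (log2), beside 0.01 for all genes tested. Targets were on both sides. Ccnd1, the cyclin D1 gene, fell from 7.39 and 7.96 TPM to 1.41 and 1.82 TPM (-2.25, SE 0.14, adjusted p = 5.07e-17, edgeR). Myc fell from 46.9 and 45.7 TPM to 16.9 and 18.5 TPM (-1.43, SE 0.05, adjusted p = 2.43e-24, edgeR). Ascl2, a basic helix-loop-helix gene, fell by 1.18 on the log2 scale and by 0.89 without dTAG13 replicate 1, under the 2-fold limit. Tnfrsf19, a receptor gene induced by β-catenin, rose by 2.09. The membrane protein gene Bambi fell by 1.45. Among inhibitors, Notum, whose product strips the lipid from WNT ligands, fell from 3.64 and 3.33 TPM to 0.56 and 1.21 TPM. Its fitted difference was -2.63 (SE 0.27, adjusted p = 6.07e-11, edgeR), and -3.44 to -2.12 as single libraries were left out. Znrf3, a ligase that removes Frizzled receptors, rose by 1.02, and by 0.95 without DMSO replicate 1 or 0.91 without dTAG13 replicate 2. Upstream of these, the ligand gene Wnt7b rose from 0.49 and 0.67 TPM to 2.83 and 2.35 TPM (2.12, SE 0.21, adjusted p = 1.57e-11, edgeR) and the R-spondin gene Rspo3, an agonist, by 1.83. The casein kinase genes Csnk1g2 and Csnk1e rose by 1.40 and 1.21, and the β-catenin cofactor genes Bcl9l and Ctnnbip1, the latter an inhibitor of TCF binding, by 1.45 and 1.21.

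Markers of other cell types moved with dTAG13 in the E4.5 ICM. All 8 trophectoderm markers were higher with dTAG13 and 7 were called, and their summed level was 85.3 to 93.6 TPM with DMSO and 936 TPM in both dTAG13 libraries. Of the 6 epiblast markers 5 were called lower, with a sum of 671 to 689 TPM against 345 to 351 TPM. The 8 primitive endoderm markers summed to 566 to 575 TPM against 1085 to 1093 TPM. They did not all move together, with 6 higher and 2 lower at an adjusted p under 0.05 (edgeR). Dab2 was called higher, at 141 and 135 TPM with DMSO and 444 and 448 TPM with dTAG13, and Lama1 was at 144 and 151 against 241 and 245 TPM, while Sox17 (-0.11 on the log2 scale, adjusted p = 0.00278, edgeR) and Sox7 (-0.44, adjusted p = 3.37e-09, edgeR) were lower by less than 2-fold. Their part in the E4.5 ICM results, for the 10 genes and for the wider pathway, was not tested. Markers also moved in 2iES cells. The epiblast markers summed to 442 to 520 TPM with DMSO and 281 to 310 TPM with dTAG13, with Pou5f1 (-1.75 on the log2 scale) and Nanog (-1.12) called lower of 6. Of the epiblast list, 4 markers lay lower in both dTAG13 libraries and 1, Sox2, lay higher, at 18.4 TPM in both against 12.3 and 17.2 TPM. Of the 5 ES cell markers 1 was called lower, Nr0b1 (-1.29), and their sum was 234 to 237 TPM against 191 to 200 TPM. Klf4 of that list was higher by less than 2-fold (0.48, adjusted p = 0.0335, edgeR). Zscan4d of the 2-cell list (1.93) and Col4a1 of the primitive endoderm list (2.47) were called higher and Eomes of the trophectoderm list (-1.21) lower. The trophectoderm sum was 118 to 143 TPM against 139 to 146 TPM, and the primitive endoderm sum 3.36 to 5.15 TPM against 4.54 to 4.93 TPM. The part of these markers in the 2iES results was not tested.

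**Figure D3:**
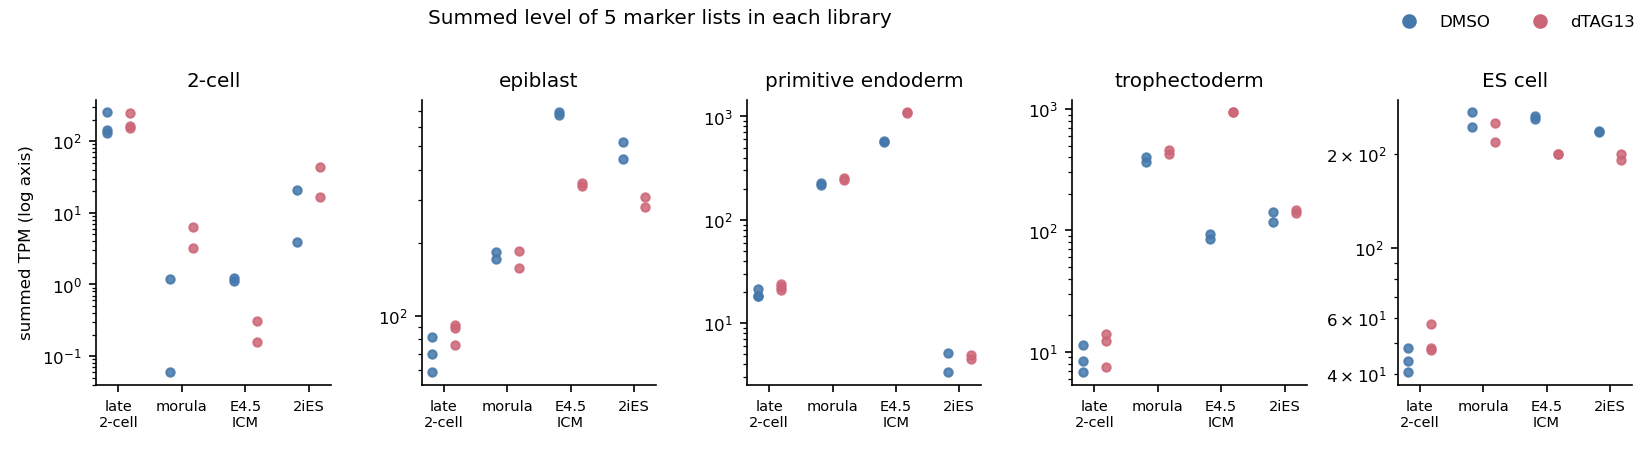
Summed TPM (vertical axis, logarithmic) of lists of 6 2-cell, 6 epiblast, 8 primitive endoderm, 8 trophectoderm and 5 ES cell markers in each of the 18 libraries by stage, with DMSO (blue) and dTAG13 (red). Trophectoderm markers in the E4.5 ICM lie at 85.3 and 93.6 TPM with DMSO and at 936 TPM in both libraries with dTAG13.

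In 2iES cells 79 of the 110 genes were tested, 10 fell, 11 rose and 58 were not called, beside 15.6% of all genes lower and 12.4% higher. The median was 0.22 (log2), beside 0.03 for all genes tested. Ligand genes were among the largest differences in both directions. Wnt11, a mostly non-canonical ligand gene, rose from 0.32 and 0.34 TPM to 1.82 and 1.98 TPM (2.65, SE 0.31, adjusted p = 0.000698, edgeR). Wnt6 rose from 0.55 and 0.35 TPM to 1.44 and 1.46 TPM (1.89, SE 0.40, adjusted p = 0.00727, edgeR), while Wnt5b fell from 2.38 and 1.35 TPM to 0.40 and 0.31 TPM (-2.34, SE 0.37, adjusted p = 0.00209, edgeR). Porcn, the acyltransferase every WNT ligand needs to be secreted, fell from 12.96 and 10.45 TPM to 4.16 and 3.98 TPM (-1.61, SE 0.18, adjusted p = 0.000569, edgeR). Notum fell by 3.04. Of the receptor genes, Ptk7 rose by 1.86 and Fzd6 by 1.15, the latter not without DMSO replicate 1 (0.97), dTAG13 replicate 1 (adjusted p = 0.0926, edgeR) or dTAG13 replicate 2 (adjusted p = 0.0900, edgeR). DESeq2 (adjusted p = 0.0701) and edgeR with all 18 libraries in 1 fit (adjusted p = 0.156) did not call Fzd6 either. In the cytoplasm, Csnk1g1, a casein kinase gene, rose by 1.84 and Tnks2, a tankyrase that marks axin for destruction, by 1.36.

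The targets and nuclear factors of the list split in 2iES cells as well. Cdx1 fell from 12.45 and 8.87 TPM to 3.15 and 2.91 TPM (-1.73, SE 0.21, adjusted p = 0.000753, edgeR). Myc fell by 1.62 and Ccnd1 by 1.37. Tnfrsf19 rose by 1.69 and Ephb3, a receptor of ephrins, by 1.31. Aes, which rose at the late 2-cell stage, fell here from 78.8 and 46.4 TPM to 10.7 and 14.0 TPM (-2.25, SE 0.25, adjusted p = 0.000533, edgeR), and Pygo2 fell by 1.22. Whether the 2 effects on Aes differ was not tested.

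**Figure D4:**
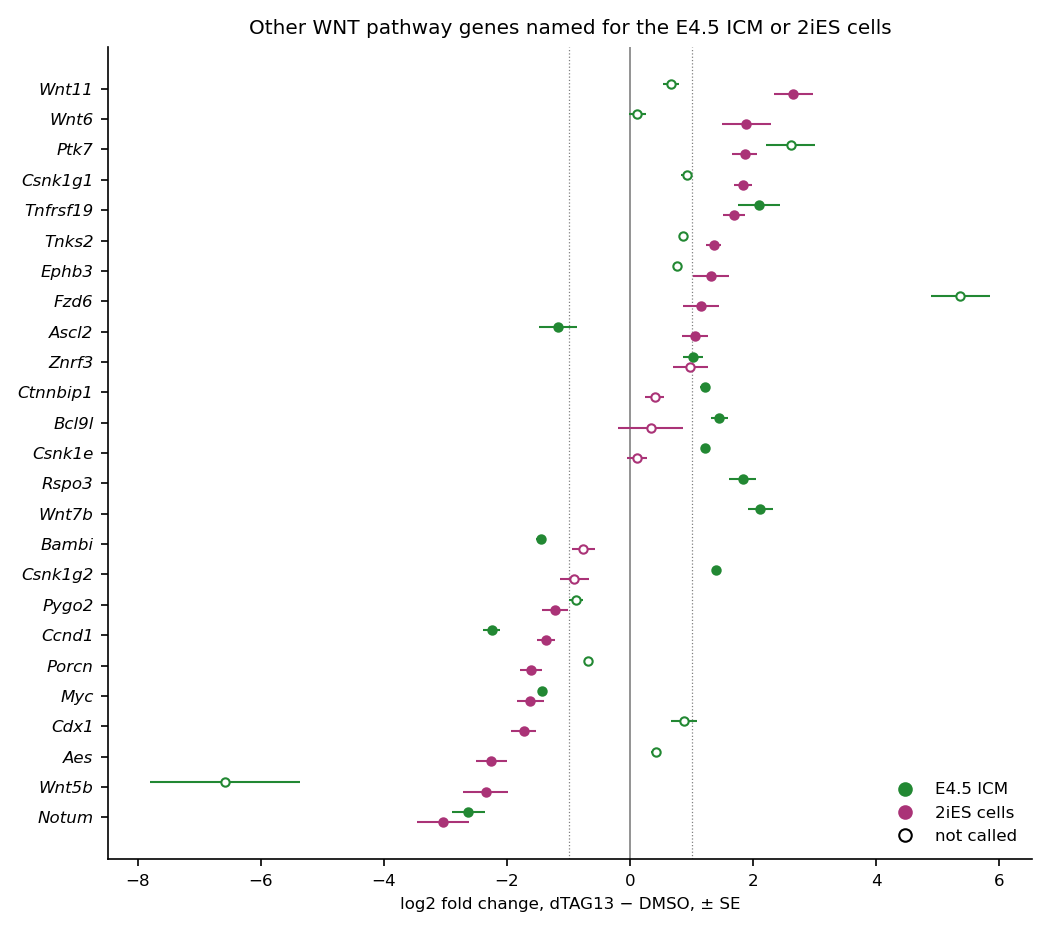
Fitted log2 fold change with dTAG13 (horizontal axis) and its standard error of the other WNT pathway genes named for the E4.5 ICM (green) or 2iES cells (purple), with a gene on each line. Filled points were called, open points were not, dotted lines mark a 2-fold change, and a missing point was not tested there. Notum, Ccnd1 and Myc lie left of zero in both, and Aes and Cdx1 on either side.

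The difference between the effects in the E4.5 ICM and 2iES cells was tested for the same list with an interaction term. Of 90 genes tested, 37 (41.1%) had different effects at an adjusted p under 0.05, beside 41.9% of all genes. With all 18 libraries in 1 fit the number was 18. Of the 37, the E4.5 ICM effect minus the 2iES effect was negative for 24 and positive for 13. Aes was 2.65 (log2) more positive in the E4.5 ICM than in 2iES cells (SE 0.28, adjusted p = 0.000132, edgeR) and Cdx1 2.58 (SE 0.26, adjusted p = 0.000104, edgeR). Ascl2 was 2.25 lower (SE 0.37, adjusted p = 0.00124, edgeR).

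With DMSO, 81 of the 110 genes could be compared between 2iES cells and the E4.5 ICM, and 17 were lower and 13 higher in 2iES cells, beside 18.4% of all genes lower and 15.2% higher. The median was -0.27 (log2), beside -0.05 for all genes tested. Dkk1, a secreted inhibitor of LRP receptors, was at 124 and 125 TPM in the E4.5 ICM and 3.71 ± 0.127 TPM (SD, n = 2) in 2iES cells (-4.53, SE 0.11, adjusted p = 1.50e-05, edgeR). The ligand genes Wnt11 (-3.44) and Wnt6 (-3.00) and the target genes Ephb3 (-3.54) and Myc (-2.03) were also lower in 2iES cells, as were Gsk3a (-2.23), the GSK3-binding Frat2 (-2.03) and the scaffold gene Amer1 (-1.66). The target genes Tnfrsf19 (3.58), Cdx1 (3.24), Ccnd1 (2.47) and Ascl2 (2.17) were higher in 2iES cells, as were the receptor genes Ror2 (4.05) and Ptk7 (3.66), the ligand gene Wnt5b (3.27) and Aes (2.34). The split depended on the scaling, since library totals gave 22 lower and 10 higher.

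The genes whose level over the 18 libraries was most like that of a member were read from 12032 genes as the Pearson correlation of log2(TPM + 1), as a description, since libraries of a stage share their cell type and method. For Lef1 these were Antxr2 (0.998), Gm16478 (0.998) and Gm15507 (0.997), each listed at 0 TPM in libraries of the later stages. For Tcf7l1 they were Slc3a2 (0.976), Lefty1 (0.975) and Junb (0.974). For Axin2 they were Mapk14 (0.976), Exosc10 (0.975) and Aldh9a1 (0.969). For Sp5, at a few counts a library, the highest value was 0.856, with Rplp0, then Selenow (0.841) and Tdrd12 (0.833), and nothing is read from it.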

How the data were processed

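RNA was measured in 18 libraries made with SMART-Seq v4 and Nextera XT, which keep no strand. Per the study's methods, the authors trimmed reads with Trimmomatic (version 0.39 in the submitters' processing notes), ran STAR against GRCm38 and estimated gene abundance by RSEM. The deposited values are expected counts, which are not normalized, and the authors' TPM and FPKM, which are scaled by transcript length and library. Total expected counts were 9457933 to 27660132 a library, and low counts limit the precision of rare transcripts.

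Expected counts were rounded and each stage was fitted on its own with the edgeR quasi-likelihood test (edgeR 4.0.16, R 4.3.3) and TMM scaling, keeping genes that reached 10 counts in a number of libraries equal to the size of the smaller group. P-values were Benjamini-Hochberg adjusted over all genes tested. A call needed an adjusted p under 0.05, a 2-fold or greater difference, and an average FPKM of 1 or more on either side of the comparison. TPM served for levels. An interaction term compared the effects in the E4.5 ICM and 2iES cells. The fits were tested on simulated data.

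The members, the list of 110 other pathway genes and the marker lists were chosen with earlier results of these data known. Of the other pathway genes, up to 8 called genes in each direction and comparison with the largest fold change were named, plus, for Axin2, Sp5, Lef1 and Tcf7l1, the 3 genes most correlated with each among those with a mean of at least 5 TPM in 1 group. Samples were grouped by their labels. The alternatives were DESeq2 1.42.0, its size factors, library totals, no filter on low counts, no fold threshold, all 18 libraries in 1 fit, ratios of mean TPM with 1 or 0.1 TPM added, the replicate number as a block and leaving out each library. A crossed block was chosen after seeing the data. Binding and accessibility libraries were not analysed here.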

Additional observations from a re-analysis of the deposited data

Results flagged for a closer look

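The effect of dTAG13 differed between the E4.5 ICM and 2iES cells for 14 of the other pathway genes named for either. This was read from the edgeR interaction term over all genes. The genes were named for their large effects in these same comparisons, so nothing is read from the count. Over the whole list 37 of 90 genes tested (41.1%) passed, beside 41.9% of all genes. The difference is given on the log2 scale as the E4.5 ICM effect minus the 2iES effect. It was positive for Fzd6 (4.20, adjusted p = 0.000431), Aes (2.65, adjusted p = 0.000132), Cdx1 (2.58, adjusted p = 0.000104), Csnk1g2 (2.28, adjusted p = 0.000141), Csnk1e (1.08, adjusted p = 0.000832), Porcn (0.90, adjusted p = 0.00228) and Ctnnbip1 (0.79, adjusted p = 0.00459). Fzd6 was listed at 0.10 and 0.01 TPM in the E4.5 ICM with DMSO, so its difference rests on few counts. The difference was negative for Ascl2 (-2.25, adjusted p = 0.00124), Wnt11 (-2.00, adjusted p = 0.000746), Wnt6 (-1.79, adjusted p = 0.00464), Csnk1g1 (-0.94, adjusted p = 0.00114), Ccnd1 (-0.90, adjusted p = 0.00489), Bambi (-0.70, adjusted p = 0.0156) and Tnks2 (-0.51, adjusted p = 0.0158). Bambi and Tnks2 lost this call without single libraries, at adjusted p up to 0.0770 for Bambi and 0.0773 for Tnks2 in edgeR. With all 18 libraries in 1 fit of edgeR the call was lost for Ctnnbip1 (adjusted p = 0.195), Bambi (0.142), Wnt11 (0.0974), Tnks2 (0.0820), Ccnd1 (0.0634) and Porcn (0.0540).

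For 3 members every dTAG13 library lay on one side in TPM at one stage and on the other side at another, and the difference was not tested. The mean TPM of Wnt3 differed by -0.135 in morulae and -0.075 in the E4.5 ICM, against 1.36 in 2iES cells. The mean TPM of Ctnnb1 differed by -28.9 in morulae, against 84.04 in the E4.5 ICM and 48.1 in 2iES cells. The mean TPM of Lef1 differed by -0.085 in morulae and -0.07 in the E4.5 ICM, against 0.265 in 2iES cells. In morulae Lef1 had 11 and 11 counts with DMSO and 11 and 7 with dTAG13, and its fitted difference was -0.44 (log2, SE 0.73). Its groups there lay apart in TPM but not in counts. Groups held 2 or 3 libraries, so no library was tested for standing apart within its group.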

How the results depend on the processing

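No fold change of a called member changed sign under any alternative run, and of 458 member fold changes under alternatives 14 had the other sign. Dropping the fold threshold gave 19 lower and 27 higher other pathway genes in the E4.5 ICM, 16 and 17 in 2iES cells, and 3, 4 and 4 called members in the E4.5 ICM, 2iES cells and the DMSO comparison. With all 18 libraries in 1 fit, 2 other genes were lower at the late 2-cell stage, 1 member was called in 2iES cells and 18 interactions passed. That fit also lost Rspo3 (adjusted p = 0.101), Ascl2 (0.0617) and Znrf3 (0.0611) in the E4.5 ICM and Wnt5b (0.0927) and Fzd6 (0.156) in 2iES cells, by edgeR. Library totals gave 1 called member in 2iES cells and 4 in the DMSO comparison. Leaving out 1 library gave 0 to 1 higher and 1 lower at the late 2-cell stage, 0 to 1 lower in morulae, 4 to 6 lower and 7 to 9 higher in the E4.5 ICM, 9 to 13 lower and 8 to 12 higher in 2iES cells, 16 to 18 lower and 12 to 13 higher in the DMSO comparison, and 25 to 46 interactions. Called members ranged from 2 to 3 in 2iES cells and in the DMSO comparison.

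Same-numbered libraries did not deviate together, with correlations of 0.03, 0.08 and 0.09 at the late 2-cell stage, 0.02 in morulae, -0.01 in the E4.5 ICM and -0.18 in 2iES cells, so the numbers were not taken to pair the samples. With the replicate block, 5 lower and 8 higher other pathway genes were called in the E4.5 ICM and 9 and 12 in 2iES cells, and the crossed pairing in 2iES cells, chosen after seeing the data, also gave 9 and 12.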
